A study of Rattus norvegicus with 2 samples.

Results

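The small leucine-rich proteoglycans are secreted proteins of the extracellular matrix whose cores are built of leucine-rich repeats. The genes taken here were *Dcn* (decorin), *Lum* (lumican), *Bgn* (biglycan), *Fmod* (fibromodulin), *Ogn* (osteoglycin), *Omd* (osteomodulin), *Aspn* (asporin), *Prelp* and *Podn* (podocan), taken by symbol as a gene family. Of these 9 genes, 8 had a row among the 25399 genes of the count tables and 7 were seen above a floor of 3 unique molecular identifiers (UMIs) in either library. *Podn* was not analysed here, and *Omd* had 2 UMIs in the control library and 0 in the LPS library.

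Members of this family bind collagen fibrils and set their spacing and width, and many also carry chondroitin, dermatan or keratan sulphate chains. Decorin, biglycan and asporin form class I, lumican, fibromodulin, osteomodulin and Prelp class II, and osteoglycin class III. Several bind growth factors of the TGF-beta family, and soluble biglycan and decorin are known ligands of the Toll-like receptors Tlr2 and Tlr4, the latter being the receptor of bacterial lipopolysaccharide (LPS). In the heart they are made mainly by fibroblasts.

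Heart cells came from neonatal Sprague-Dawley rats aged 1 to 3 days, males and females pooled. They were enriched on a Percoll gradient for intrinsic cardiac adrenergic (ICA) cells, then plated and cultured. In culture they were given either saline (control) or LPS at 1 µg/ml for 2 h. A digestion with trypsin and EDTA freed them before loading, so the levels are those of cultured cells. Each condition was 1 droplet library made with the 3′ kit of 10X Genomics, so no replicate exists, no test was made, and a difference between the libraries cannot be told apart from a difference in their handling. The control library held 11531 cells with a median of 12479 UMIs per cell, and the LPS library 12689 cells with a median of 9432. Animals were pooled, and cells were not assigned to an animal here.

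Cells were grouped by the numbered clusters of the deposited cell table. In that table clusters 0, 1 and 7 are named fibroblasts, cluster 3 ICA cells and cardiomyocytes, clusters 4 and 5 endothelial cells and cluster 6 macrophages, and clusters 2, 8, 9 and 10 have no cell type name. By marker genes, cluster 2 was richest in mural and smooth muscle genes, cluster 8 in mesothelial genes and cluster 10 in Schwann cell genes, cluster 1 led in genes of cycling cells and cluster 7 in interferon response genes. Although the labels call the samples ICA cells, 7999 control cells and 8609 LPS cells lay in the fibroblast clusters. The libraries shared 194 cell barcodes, of which 76 had the same cluster number in both.

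Osteoglycin, osteomodulin and asporin are consecutive genes in RefSeq's order, as are decorin and lumican, and as are Prelp and fibromodulin. The promoters of the first of these groups are shown because *Ogn* and *Aspn* were the members furthest below control after LPS, while *Omd* between them was hardly seen. Each sequence runs 5′ to 3′ on the strand of its gene, from 250 bases before the start of the gene to 50 bases after it, and comes from RefSeq on the GRCr8 assembly. All 3 genes lie on the minus strand, *Ogn* at chr17:15258946-15259245, *Omd* at chr17:15274821-15275120 and *Aspn* at chr17:15310420-15310719. Capitals mark matches to the motifs searched.
Ogn: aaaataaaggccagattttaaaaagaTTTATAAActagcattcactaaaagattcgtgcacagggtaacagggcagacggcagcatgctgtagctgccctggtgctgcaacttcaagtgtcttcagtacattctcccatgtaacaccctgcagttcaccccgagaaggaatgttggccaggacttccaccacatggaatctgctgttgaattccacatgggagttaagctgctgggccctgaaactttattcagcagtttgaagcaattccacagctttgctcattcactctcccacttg
Omd: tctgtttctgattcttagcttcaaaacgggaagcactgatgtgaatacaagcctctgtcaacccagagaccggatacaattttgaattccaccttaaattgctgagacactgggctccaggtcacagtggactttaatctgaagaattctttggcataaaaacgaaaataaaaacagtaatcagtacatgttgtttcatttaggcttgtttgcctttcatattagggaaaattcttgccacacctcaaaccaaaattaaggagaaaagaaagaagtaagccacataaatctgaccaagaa
Aspn: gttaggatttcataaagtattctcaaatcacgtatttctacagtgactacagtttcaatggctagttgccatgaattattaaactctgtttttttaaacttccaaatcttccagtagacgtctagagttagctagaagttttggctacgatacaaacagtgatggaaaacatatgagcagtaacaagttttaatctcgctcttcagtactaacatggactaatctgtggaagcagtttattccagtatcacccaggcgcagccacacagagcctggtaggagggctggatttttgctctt

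The motifs were searched on both strands, namely the TATA box TATAAA, the AP-1 site TGANTCA, the CCAAT box CCAAT, the GC box GGGCGG, and the NF-kappaB site and the CArG box by their usual consensus. Of 33469 rat promoters of this length, 14.2% held the TATA box, 7.33% the AP-1 site, 37.5% the CCAAT box, 33.1% the GC box, 7.51% the NF-kappaB site and 1.64% the CArG box. The *Ogn* promoter held a pair of overlapping TATA box matches, 1 on each strand, which begin at positions -224 and -222 from the start of the gene. No match was found in the windows of *Omd* and *Aspn*. In the windows of other members, the search found a CCAAT box in *Lum* at position -130 from the start, a CCAAT box and a GC box in *Fmod* at positions -247 and -85 from it, and 3 GC boxes in *Podn*. *Dcn*, *Bgn* and *Prelp* had no entry.

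By UMIs counted, the family was carried by 3 abundant and 4 scarce genes. The level of a gene is given as its UMIs summed over the cells of a cluster per 1000000 UMIs of that cluster (CPM). The 3′ kit counts a transcript once whatever its length, but how fully transcripts are counted may differ between genes. This was not tested, so levels of different genes are compared as UMIs counted. In cluster 0, the largest fibroblast cluster with 6600 control and 7030 LPS cells, the control level of *Dcn* was 2764 CPM, that of *Bgn* 1739 and that of *Lum* 1115. *Prelp* stood at 42.7 CPM, *Aspn* at 38.4, *Ogn* at 18.9 and *Fmod* at 10.8 in the same cells. The members together made 0.457% of all UMIs of the control library and 0.452% of those of the LPS library. The fibroblast clusters, which held most of the cells, held 89.4% and 90.4% of the members' UMIs. The members' summed level in the fibroblast clusters was 5378 CPM in control and 5459 in LPS cells, against 4574 and 4518 over each whole library.

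After LPS the family's summed level in cluster 0 was nearly the same, but its make-up was not. The sum was 5729 CPM in control and 5774 in LPS cells, a ratio of LPS to control of 1.008. Within it, decorin was higher, biglycan and lumican were somewhat lower, and asporin, osteoglycin and fibromodulin were lower by more than 1.5-fold. These 3 of the 7 members were past 1.5-fold lower in cluster 0, where 19.7% of the 12247 genes with at least 50 UMIs were, and no member was past 1.5-fold higher, as 6.88% of those genes were. The median ratio was 0.847 over the members and 0.914 over all genes tested. Over the fibroblast clusters together the same 3 of 7 were past 1.5-fold lower, beside 19.8% of 12575 genes, and none higher, beside 6.64%. Intervals are exact at 95% (Poisson for levels, conditional for ratios, Clopper-Pearson where a percent of cells is given) and reflect no more than the error of counting.

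**Figure D1:**
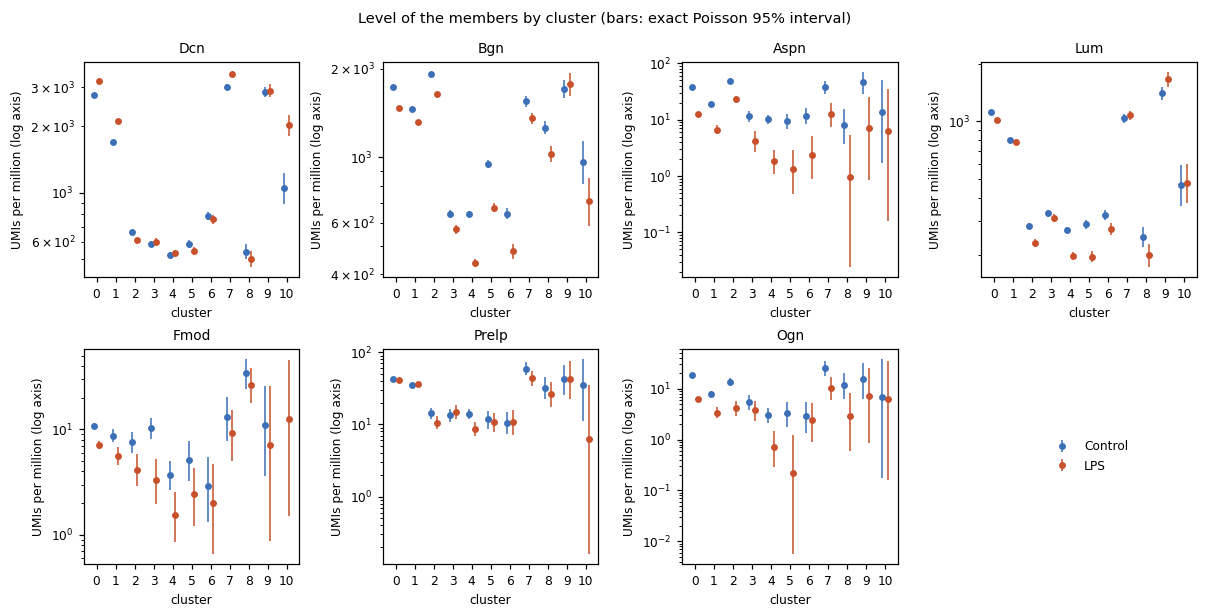
Level of the 7 members in UMIs per 1000000 UMIs of the cluster (log axis, its range set for each panel) by cluster and library. Points are levels, bars are exact Poisson 95% intervals, and levels of 0 are not drawn. *Dcn* and *Lum* are high in clusters 0, 1, 7 and 9, *Bgn* also in cluster 2, *Fmod* highest in cluster 8, and the LPS points of *Aspn* lie below the control points in every cluster.

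Among the class I genes, *Dcn* (ENSRNOG00000004554), whose protein coats collagen fibrils and binds TGF-beta, had the highest level of the family in the fibroblast clusters. It stood at 2764 CPM in control and 3214 in LPS cells of cluster 0, a ratio of 1.16 (1.16 to 1.17), and 81.5% of all genes tested there had a lower ratio. In cluster 1, which was rich in cycling cells, *Dcn* went from 1699 to 2114 CPM, a ratio of 1.24 (1.23 to 1.26). In cluster 7 it went from 3023 to 3440 CPM, a ratio of 1.14 (1.09 to 1.18). The intervals of these 3 fibroblast clusters all lay above 1, within 1.5-fold.

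Outside the fibroblasts *Dcn* was lower, at 19.0% to 28.5% of its control level in cluster 0 for clusters 2 to 6, and did not move the same way. In cluster 2 it went from 666 to 610 CPM, a ratio of 0.916 (0.883 to 0.951), and in the endothelial cluster 5 from 588 to 546 CPM, a ratio of 0.929 (0.878 to 0.982). The median ratio of all genes was 0.922 in cluster 2 and 0.962 in cluster 5. Of all genes tested there, 48.9% and 44.3% had a lower ratio than *Dcn*, which thus lay near the centre in both. In clusters 3, 4 and 6 the intervals of the ratio held 1, and the ratios were 1.03, 1.02 and 0.967. Set against the ratio in cluster 0, that in cluster 2 was 0.788 times as large (0.759 to 0.818). This difference exceeds counting error, but with 1 library a condition it was not tested.

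*Dcn* was also the sole member past 1.5-fold higher in any cluster in the main setting. In cluster 10, the Schwann-rich cluster of 16 control and 26 LPS cells, it went from 1050 to 2026 CPM, a ratio of 1.93 (1.59 to 2.36), beside 10.7% of the 824 genes tested there that were past 1.5-fold higher and 6.67% past it lower. A few cells carried this value. With each cell thinned at random to 3000 UMIs, the median was 1.5 *Dcn* UMIs per control cell and 1 per LPS cell, while the upper quartile was 3.25 in control and 8.75 in LPS cells.

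*Bgn* encodes biglycan, the closest relative of decorin and a ligand of Tlr2 and Tlr4 when it is released from the matrix. Its level in cluster 0 was 1739 CPM in control and 1473 in LPS cells, a ratio of 0.847 (0.841 to 0.854), and 40.0% of all genes tested had a lower ratio. Of all members it was the most evenly spread over the clusters. In cluster 2 it was at 1929 CPM in control and 1641 in LPS cells, above cluster 0 in both libraries, at 111% of the level there. The ratio in cluster 2 was 0.851 (0.832 to 0.870), next to that in cluster 0.

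The ratio of *Bgn* was lowest in the endothelial clusters. It went from 641 to 436 CPM in cluster 4, a ratio of 0.680 (0.655 to 0.707), and from 947 to 674 CPM in cluster 5, a ratio of 0.712 (0.679 to 0.746). In cluster 10 the ratio was 0.733 (0.567 to 0.947) and in macrophages 0.744 (0.692 to 0.799), with intervals that overlap that of cluster 5. The summed genes of collagens that form or decorate fibrils had ratios of 0.633 and 0.624 in clusters 4 and 5, against 0.805 in cluster 0. Their ratios were 0.697 in macrophages and 0.632 in cluster 10. In the mesothelial-rich cluster 8 *Bgn* went from 1264 to 1027 CPM, a ratio of 0.812 (0.750 to 0.880). Cluster 9 had the one *Bgn* ratio above 1, at 1.04 with an interval from 0.927 to 1.17. In this cluster mitochondrial genes had a median share of 14.0% of a control cell's UMIs and 12.6% of an LPS cell's, against 3.37% and 2.94% in cluster 0.

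*Aspn* encodes asporin, a class I member that binds collagen and TGF-beta and, unlike decorin and biglycan, carries a run of aspartate residues in place of the chains. It went from 38.4 CPM (3471 UMIs) in control to 12.8 CPM (942 UMIs) in LPS cells of cluster 0, a ratio of 0.333 (0.310 to 0.358). Just 3.02% of all genes tested in cluster 0 had a lower ratio. In cluster 1 the level went from 18.8 to 6.70 CPM, a ratio of 0.357 (0.292 to 0.434), and in cluster 7 from 38.4 to 12.5 CPM, a ratio of 0.326 (0.183 to 0.557). The 3 fibroblast clusters thus had ratios whose intervals overlapped.

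The highest level of *Aspn* was in the mural-rich cluster 2. There it stood at 49.5 CPM in control and 23.1 in LPS cells, which is 129% and 181% of the level in cluster 0 of the same library. The ratio of LPS to control, 0.466 (0.392 to 0.552), was 1.40 times that in cluster 0 (1.17 to 1.68). In cluster 4 it went from 10.2 to 1.85 CPM, a ratio of 0.180 (0.103 to 0.298), which was 0.542 times that in cluster 0 (0.328 to 0.896). The ratios in clusters 5, 6, 8 and 9 were also below that in cluster 0, at 0.140, 0.203, 0.118 and 0.153, but each had fewer than 10 LPS UMIs and was not set against it. In every cluster from 0 to 9 the interval of the *Aspn* ratio lay below 1, though in cluster 8 it rests on 9 control UMIs and 1 LPS UMI and in cluster 9 on 21 and 2.

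**Figure D2:**
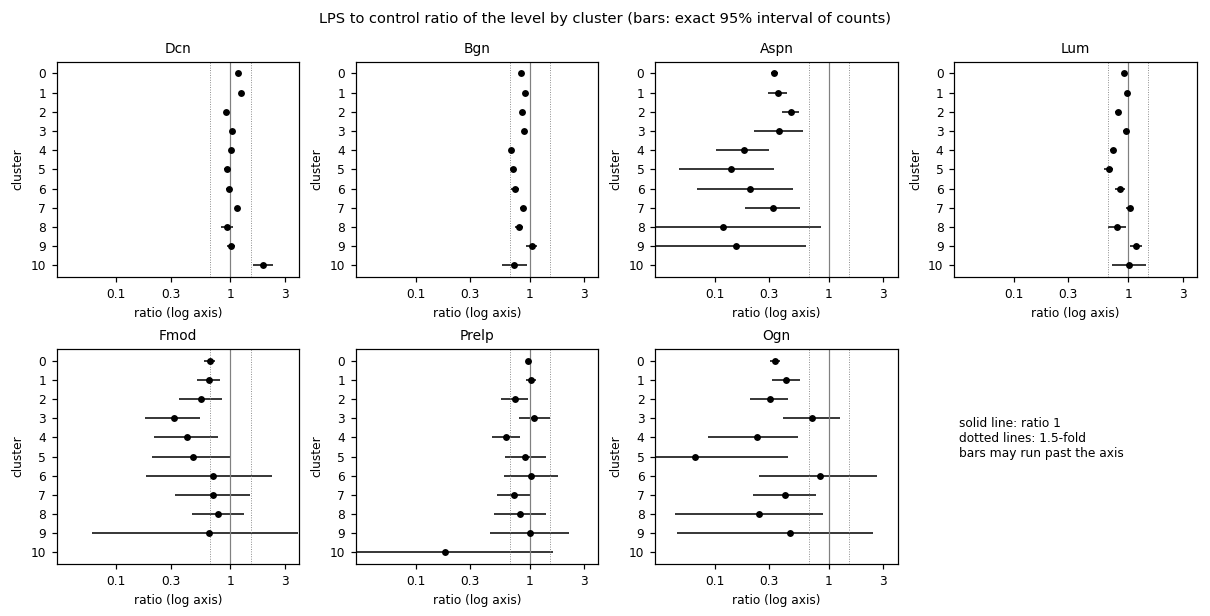
Ratio of the LPS level to the control level (log axis) for each member and cluster. Points are ratios, bars exact 95% intervals of the counts, the solid line a ratio of 1 and the dotted lines 1.5-fold; a cluster is left out where a library had no UMI or both were at or under 3. The points of *Aspn* lie left of the dotted line in clusters 0 to 9, those of *Bgn* between 0.680 (cluster 4) and 1.04 (cluster 9), and those of *Dcn* on both sides of 1.

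Of the class II genes, *Lum* encodes lumican, a keratan sulphate carrier that binds thin collagen fibrils. It went from 1115 to 1019 CPM in cluster 0, a ratio of 0.914 (0.905 to 0.922), which is the median ratio of all genes there, and 49.9% of them had a lower ratio. Its level followed that of *Dcn* across the clusters, at 25.4% of cluster 0 in cluster 2 and 22.4% in cluster 8 of the control library, where *Dcn* was at 24.1% and 19.7%. The lowest ratios were in the endothelial clusters, at 0.733 (0.692 to 0.776) in cluster 4 and 0.677 (0.620 to 0.739) in cluster 5. In cluster 9 *Lum* had its highest level, 1409 CPM in control and 1663 in LPS cells, with a ratio of 1.18 (1.04 to 1.33). This cluster also had the highest sum of 8 fibroblast markers, among them *Col1a1* and *Postn*. That sum was 13857 CPM in control cells of cluster 9 against 9839 in those of cluster 0. Cardiomyocyte markers summed to 1156 CPM in the same cells of cluster 9, against 142 in cluster 0.

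*Fmod* encodes fibromodulin, which binds the same region of collagen as lumican. It was the sole member with its highest level in the mesothelial-rich cluster 8, at 34.2 CPM (38 UMIs) in control and 26.7 CPM (28 UMIs) in LPS cells, against 10.8 and 7.06 CPM in cluster 0. These levels are 317% and 378% of those in cluster 0, and the ratio of LPS to control in cluster 8 was 0.780 with an interval from 0.461 to 1.31. In cluster 0 the ratio was 0.656 (0.588 to 0.730), and 18.9% of all genes tested had a lower one. Scaled by the median ratio of all genes, it came to 0.718 and was no longer past 1.5-fold.

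In the ICA and cardiomyocyte cluster 3, *Fmod* started as high as in cluster 0 and ended lower. It went from 10.3 CPM (73 UMIs) to 3.28 CPM (18 UMIs), a ratio of 0.318 (0.179 to 0.539), which was 0.486 times that in cluster 0 (0.287 to 0.822). In this cluster *Aspn* and *Fmod* were past 1.5-fold lower, 2 of the 7 members, beside 5.26% of the 8465 genes tested there, and none was past it higher, beside 4.36%. *Ogn* was not among them there, with 38 control and 21 LPS UMIs and a ratio of 0.714 (0.398 to 1.25). Some cells of cluster 3 held a UMI of *Dbh*, the gene of noradrenaline synthesis that marks ICA cells. Their summed member level was 1775 CPM in control (156 cells) and 1417 in LPS (121 cells), against 1552 and 1528 in cells without one. The cardiomyocyte gene *Tnnt2* stood at 3845 and 4064 CPM in cells with a *Dbh* UMI, against 4086 and 4460 in those without. A *Dbh* UMI may thus not set ICA cells apart from cardiomyocytes, which was not tested.

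*Prelp* encodes a proteoglycan-like protein that ties basement membranes to collagen. Its level in cluster 0 was 42.7 CPM in control and 41.6 in LPS cells, a ratio of 0.973 with an interval from 0.928 to 1.02. Its control level was higher in the interferon-rich cluster 7, at 59.6 CPM against 43.4 in LPS cells there, and in cluster 8 it kept 75.8% and 64.2% of the level in cluster 0. The intervals of its ratio held 1 in each of the clusters except 2 and 4. In cluster 4 it went from 13.8 to 8.63 CPM, a ratio of 0.623 (0.472 to 0.818), and in cluster 2 from 14.3 to 10.6 CPM, a ratio of 0.741 (0.560 to 0.975). *Omd*, the remaining class II gene, showed 2 UMIs in cluster 0 of the control library and none elsewhere, so no ratio was formed.

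The class III gene *Ogn* encodes osteoglycin, also called mimecan, a keratan sulphate carrier of bone, cornea and heart. It went from 18.9 CPM (1714 UMIs) to 6.43 CPM (474 UMIs) in cluster 0, a ratio of 0.339 (0.306 to 0.376), and 3.18% of all genes tested had a lower ratio. In cluster 1 the level went from 7.95 to 3.38 CPM, a ratio of 0.425 (0.317 to 0.563), and in cluster 7 from 25.3 to 10.5 CPM, a ratio of 0.415 (0.216 to 0.765). In cluster 2 it went from 13.8 CPM (129 UMIs) to 4.17 CPM (35 UMIs), a ratio of 0.303 (0.202 to 0.443), with 0.683% of all genes tested there below it. *Ogn* and its near neighbour *Aspn* thus had ratios of 0.339 and 0.333 in cluster 0, with intervals that overlap.

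*Ogn* and *Aspn* differed in where they were found. In control cells of cluster 2, *Ogn* was at 72.7% of its level in cluster 0, while *Aspn* was at 129%. In cluster 8 *Ogn* was at 61.7% and *Aspn* at 21.1%, though on 13 and 9 UMIs. Both were lower in the cycling-rich cluster 1 than in cluster 0, at 42.0% and 49.0%, where *Prelp* kept 83.2% and *Bgn* 84.0%.

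Counts of members past 1.5-fold in the other clusters went with the same genes. In cluster 1, 3 of 7 members (*Aspn*, *Ogn* and *Fmod*) were past it lower beside 13.1% of the 10312 genes tested, and none higher beside 6.42%. There *Fmod* came to 0.673 when scaled by the median ratio of all genes. In cluster 2 the same 3 of 7 were lower beside 13.3% of 8930 genes, and none higher beside 5.78%. In cluster 4, 3 of 6 (*Aspn*, *Prelp* and *Fmod*) were lower beside 13.1% of 9492 genes, and none higher beside 5.58%, where *Fmod* rests on 41 control and 15 LPS UMIs.

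In cluster 7, 2 of 6 (*Aspn* and *Ogn*) were lower beside 11.6% of 4806 genes, and none higher beside 10.4%. In the main setting none of the members with at least 50 UMIs was past 1.5-fold either way in cluster 5 (4 members, beside 13.0% lower and 9.50% higher), cluster 6 (4 members, beside 30.3% and 8.79%), cluster 8 (5 members, beside 6.78% and 6.91%) or cluster 9 (3 members, beside 8.48% and 8.24%). In other settings *Lum* in cluster 5 came to 0.599 to 0.652, past it. After thinning, *Lum* in cluster 8 came to 0.553, *Bgn* in cluster 6 to 0.661 and *Prelp* in cluster 6 to 2.08, all past it. The *Prelp* value rests on few UMIs, a mean of 0.0107 per thinned control cell and 0.0241 per LPS cell. Unthinned, its ratio there was 1.03 (0.593 to 1.76). The minimum of 50 UMIs leaves out, among others, *Aspn* in clusters 5, 6, 8 and 9, *Fmod* in cluster 5, at a ratio of 0.467 (0.204 to 1.00), and *Ogn* in clusters 4, 5, 6, 8 and 9. In cluster 4 *Ogn* had 34 control and 7 LPS UMIs, a ratio of 0.235 (0.0880 to 0.539), and in cluster 5 it had 14 and 1, a ratio of 0.0667 (0.00158 to 0.438). The 7 members share cells and libraries, so these shares are a description.

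The order of the clusters differed between members. In control cells *Dcn* was highest in cluster 7 at 3023 CPM (2934 to 3113), followed by cluster 9 at 2865 (2710 to 3025), which did not differ from it beyond counting error, and by cluster 0. *Lum* was highest in cluster 9 at 1409 CPM (1301 to 1523), above cluster 0 at 1115 (1109 to 1122). *Bgn* was highest in cluster 2 at 1929 CPM (1901 to 1957), above cluster 0, while cluster 9 at 1709 (1590 to 1834) could not be told from cluster 0.

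Among the scarce members, *Aspn* in cluster 2 at 49.5 CPM (45.1 to 54.3) stood above cluster 0 at 38.4 (37.1 to 39.7), but clusters 7 and 9, on 56 and 21 UMIs, had intervals that reached into both. *Fmod* in cluster 8 at 34.2 CPM (24.2 to 46.9) stood above the next, cluster 7 at 13.0 (7.84 to 20.3). *Prelp* in cluster 7 at 59.6 CPM (47.7 to 73.5) stood above cluster 0 at 42.7 (41.4 to 44.1). *Ogn* was highest in cluster 7 at 25.3 CPM, with an interval from 17.8 to 34.9 that held the level in cluster 0.

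The make-up of the family set clusters 2 and 8 apart from the fibroblasts. In control cells of cluster 0, *Dcn* made 48.2% of the members' UMIs, *Bgn* 30.3% and *Lum* 19.5%. In cluster 2 *Bgn* made 65.1% and *Dcn* 22.5%, and in cluster 8 they made 59.0% and 25.3%. Biglycan was thus the leading member in both of these clusters and also in clusters 3, 4 and 5 of the control library, at 40.1%, 43.7% and 51.1%. In LPS cells *Dcn* made 55.7% of the members' UMIs in cluster 0, and it led over *Bgn* in cluster 3 (39.9% against 37.6%) and cluster 4 (45.2% against 36.9%).

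**Figure D3:**
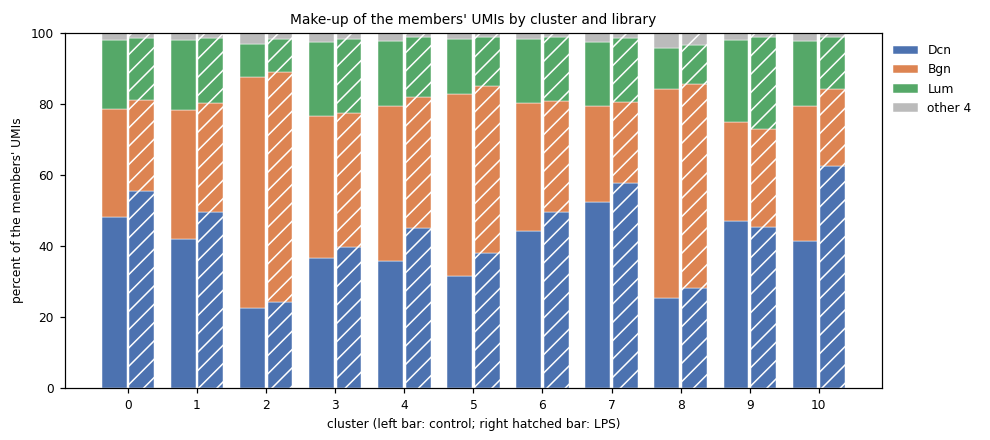
Share of the members' UMIs (percent, from 0 to 100) taken by *Dcn*, *Bgn*, *Lum* and the 4 scarce members together, by cluster. The left bar of each pair is the control and the hatched bar the LPS library. *Bgn* takes 65.1% in control cells of cluster 2 and 30.3% in those of cluster 0.

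In droplet data RNA free in the fluid gives a cell UMIs of genes that it does not express, so the level outside the fibroblasts was set beside that of fibroblast markers. In macrophages of the control library, *Dcn* stood at 28.5% of its level in cluster 0, *Lum* at 29.0%, *Bgn* at 37.1% and *Aspn* at 31.0%. There the collagen genes *Col1a1* and *Col3a1* stood at 35.0% and 35.5% and the receptor gene *Pdgfra* at 42.6%. In the endothelial cluster 4, *Dcn* stood at 19.0%, *Lum* at 24.3% and *Bgn* at 36.9% beside 31.8% for *Col1a1*, 33.2% for *Col3a1* and 32.9% for *Pdgfra*. *Ogn* was lowest of the 7 in both, at 15.3% and 16.1%. In both clusters *Dcn*, *Lum* and *Aspn* thus stood below these 3 of the 8 fibroblast markers relative to cluster 0. *Bgn* stood above *Col1a1* and *Col3a1* in both clusters, above *Pdgfra* in cluster 4 and below it in macrophages. Of the other markers, *Vim* stood above its level in cluster 0 in cluster 4 and in LPS macrophages. The rest, *Postn* among them, are drawn in the plot of levels as a percent of cluster 0 but are not compared here. Over the cluster and library classes with at least 50 cells, *Postn* was the gene most like *Lum* (Pearson's r 0.979). The order given here thus holds for *Col1a1*, *Col3a1* and *Pdgfra*, and may differ for other markers. The part of free RNA in the levels was not tested.

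Cluster 2 and cluster 8 each held a member that stood above the fibroblast markers, *Aspn* in cluster 2 and *Fmod* in cluster 8. *Bgn* in cluster 2 stood above the markers except *Ddr2*. In control cells of cluster 2, *Aspn* was at 129% and *Bgn* at 111% of cluster 0, where *Col1a1* was at 57.8%, *Postn* at 30.8% and *Pdgfra* at 25.6%, although *Ddr2* was at 114% and *Vim* at 105%. In cluster 8, *Fmod* was at 317%, with *Col1a1* at 56.4%, *Pdgfra* at 48.4% and *Vim* at 84.3%. *Dcn* and *Lum* did not stand above the markers in either cluster.

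**Figure D4:**
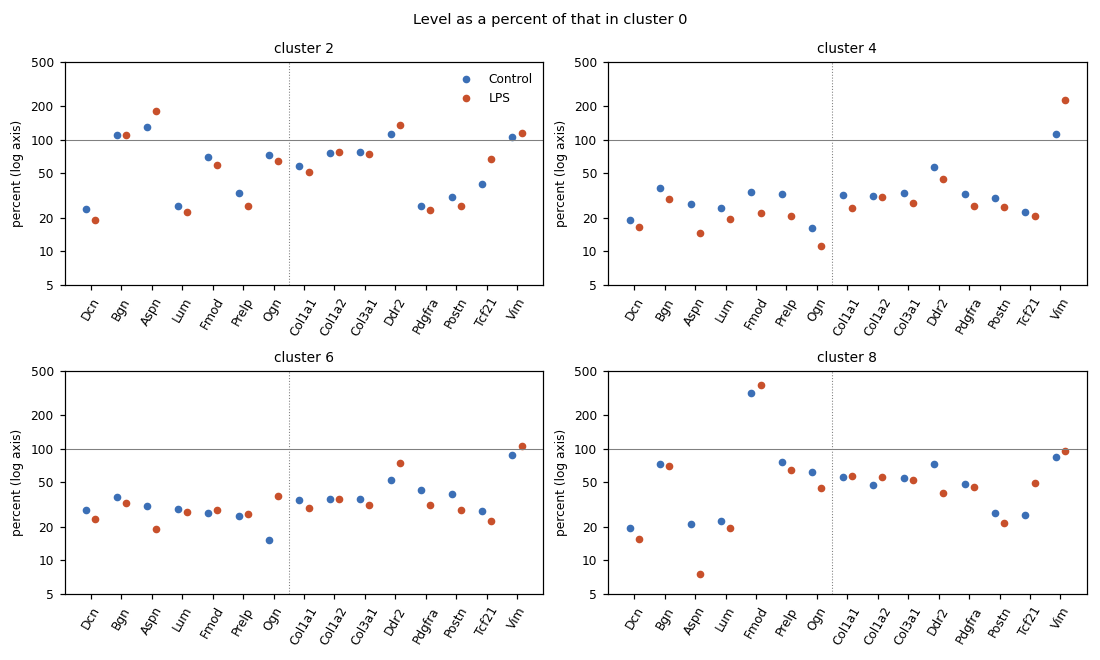
Level in clusters 2, 4, 6 and 8 as a percent of the level in cluster 0 of the same library (log axis from 5 to 500; no error bars), for the 7 members left of the dotted line and the 8 fibroblast markers right of it. Of the members, *Aspn* and *Bgn* in cluster 2 and *Fmod* in cluster 8, at 317% and 378%, lie above the line at 100; of the markers, *Ddr2* and *Vim* in cluster 2 and *Vim* in clusters 4 and 6 (LPS cells in cluster 6) do so as well.

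Nearly every cell of cluster 0 held UMIs of *Dcn* and *Bgn*, and most held UMIs of *Lum*. After each cell was thinned to 3000 UMIs, *Dcn* was seen in 98.6% of control and 98.9% of LPS cells of cluster 0, *Bgn* in 98.8% and 98.1%, and *Lum* in 86.5% and 81.1%. Thinning left out 6 LPS cells of this cluster with fewer UMIs. All 3 genes were seen together in 84.5% of control and 79.0% of LPS cells. In macrophages *Dcn* was seen in 66.2% and 61.0% of thinned cells and *Bgn* in 71.9% and 55.2%. The median depths of macrophages before thinning were 8846 and 6900 UMIs, against 12968 and 9822 in cluster 0. *Tnnt2*, a cardiomyocyte gene, was seen in 24.2% and 20.8% of thinned cells of cluster 0. The macrophage shares are given to be read beside those of cluster 0, and the part of free RNA in them was not tested.

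The scarce members were seen in a minority of fibroblasts. *Aspn* was seen in 11% of thinned control cells of cluster 0 and 3.27% of LPS cells, and *Ogn* in 5.06% and 1.69%. *Prelp* was seen in 11.3% and 11.1%, and *Fmod* in 2.97% and 1.81%. Without thinning, the shares of *Aspn* were 34.7% and 11.2%, those of *Ogn* 19.3% and 6.03%, those of *Prelp* 35.7% and 28.4%, and those of *Fmod* 11.8% and 6.32%. In macrophages the thinned shares of *Aspn* were 2.14% and 1.03% and those of *Ogn* 0.712% and 0.345%. As point values these lie below those in cluster 0 of the same library. The *Ogn* share in LPS macrophages rests on a mean of 0.00345 UMIs per cell over 290 cells. It is thus not read as a difference from the 1.69% in cluster 0.

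**Figure D5:**
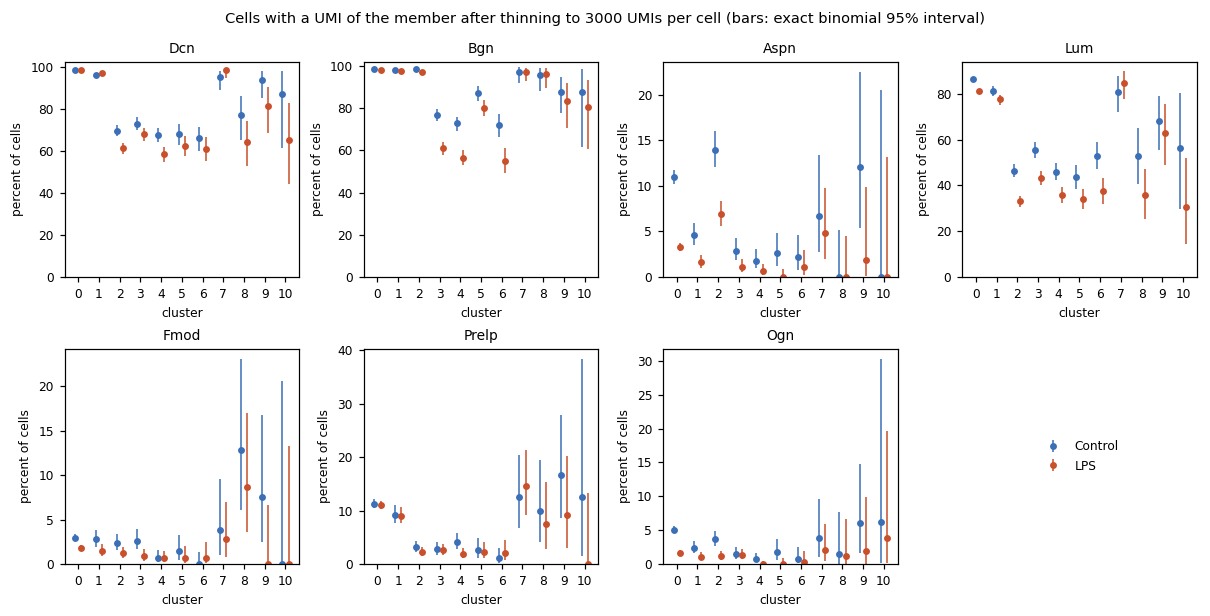
Percent of cells with a UMI of each member after thinning to 3000 UMIs per cell, by cluster and library; the vertical axis starts at 0 and has its own range in each panel. Bars are exact binomial 95% intervals. In cluster 0 *Aspn* goes from 11% to 3.27% of cells, while *Prelp* stays at 11.3% and 11.1%.

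The UMIs of *Aspn* and *Ogn* were spread over many cells in each library. In cluster 0 the 10 cells with the most UMIs of *Aspn* held 1.82% of its UMIs in control and 4.35% in LPS, and those with the most *Ogn* held 3.21% and 5.49%. *Aspn* and *Ogn* were seen in the same thinned cell in 56 control cells, against 36.7 that independent detection would give, and in 8 LPS cells against 3.90.

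Cells of cluster 0 differed more in decorin than in biglycan. At 3000 UMIs a control cell had a median of 7 *Dcn* UMIs with 10% of cells at 16 or more, and an LPS cell a median of 8 with 10% at 19 or more. The variance of *Dcn* over cells was 4.84 times its mean in control and 4.99 times in LPS cells, and that of *Lum* 3.24 and 3.32 times. *Bgn*, with a median of 5 and 4 UMIs, had a variance 1.36 and 1.29 times its mean, close to the ratio of 1 that counting alone would give. Across the thinned control cells Spearman's rho was 0.236 between *Dcn* and *Lum* and 0.0737 between *Dcn* and *Bgn*, as a description of cells that share 1 library.

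The genes most like each member were sought over the 20 cluster and library classes with at least 50 cells, by Pearson's r of log2(CPM + 1) among 9896 genes. *Dcn* was most like *Fibin* (0.976), *Lum* (0.971) and *Itm2a* (0.954), and *Lum* most like *Postn* (0.979), *Itm2a* (0.974) and *Tnc* (0.973). *Bgn* was most like *Gpx7* (0.935), *Txndc5* (0.934) and *Efemp2* (0.929), and *Prelp* most like *Loxl1* (0.955), *Serpinf1* (0.949) and *Lpar1* (0.937). These are correlations over classes that share libraries and are given as a description.

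The scarce members had other partners. *Aspn* was most like *Dpep1* (0.957), *Cd248* (0.945) and *Col6a1* (0.928), and *Fmod* most like *Dclk1* (0.909), *Osr1* (0.903) and *Gpc3* (0.891). *Ogn* was most like a gene listed as *NEWGENE_1308171* (0.882), *Nol3* (0.878) and *Col1a2* (0.875). Between members, r was 0.824 for *Ogn* and *Aspn*, 0.637 for *Dcn* and *Bgn*, and 0.248 for *Dcn* and *Fmod*.

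Of the collagens that these proteins bind, none was past 1.5-fold higher in cluster 0, beside 6.88% of all genes tested. Of 11 genes for fibril-forming or fibril-decorating collagens with at least 50 UMIs, 4 were past 1.5-fold lower, beside 19.7% of all genes tested, with a median ratio of 0.710 against 0.914 over all genes. *Col1a1* went from 4412 to 3713 CPM, a ratio of 0.842 (0.838 to 0.846), and *Col3a1* from 2087 to 1482 CPM, a ratio of 0.710 (0.705 to 0.715). The 4 past 1.5-fold were *Col1a2* at 0.497, *Col5a1* at 0.428, *Col14a1* at 0.557 and *Col11a1* at 0.423. The ratio of *Dcn* in cluster 0, 1.16, lay above that of each collagen named here. Few UMIs of *Col1a2* were counted beside *Col1a1*, as in control cells of cluster 3 without a *Dbh* UMI, with 191 against 8963. How fully *Col1a2* was counted was not tested.

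Of 26 enzymes that build the sugar chains with at least 50 UMIs in cluster 0, 2 were past 1.5-fold higher and 4 lower, and their median ratio was 0.972. These counts are near the 6.88% higher and 19.7% lower of all genes tested. *Chsy1*, which lengthens chondroitin chains, went from 15.1 to 24.2 CPM, a ratio of 1.61 (1.5 to 1.72), and *Chst11*, a chondroitin sulphotransferase, from 3.44 to 6.16 CPM, a ratio of 1.79 (1.55 to 2.08). Lower were the sulphotransferase genes *Chst12* (0.423), *Chst1* (0.577) and *Chst15* (0.464) and the galactosyltransferase gene *B4galt4* (0.455). *Chst1* sulphates keratan chains, which lumican, fibromodulin and osteoglycin can carry.

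Of 14 receptors and bound growth factors with at least 50 UMIs in cluster 0, 3 were past 1.5-fold higher, beside 6.88% of all genes tested, and 3 lower, which is near the 19.7% of all genes. *Tlr2*, a receptor of soluble biglycan, went from 6.16 to 54.2 CPM, a ratio of 8.81 (8.06 to 9.64), and *Bmp2*, a growth factor of the TGF-beta family, from 7.14 to 78.8 CPM, a ratio of 11 (10.2 to 12.0). *Cd44*, a hyaluronan receptor, went from 20.2 to 67.6 CPM, a ratio of 3.34 (3.16 to 3.53). Lower were *Tgfb3* at 0.194 (0.172 to 0.218), *Bmp4* at 0.485 and *Wisp1* at 0.579.

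Of 11 proteases that can cut these proteins, 4 were past 1.5-fold higher in cluster 0, beside 6.88% of all genes tested, and 2 lower, near the 19.7% of all genes. The most abundant, *Mmp2*, went from 829.8 to 848 CPM, a ratio of 1.02. Higher were *Mmp13* on 3 control UMIs, at a ratio of 67.1 (22.6 to 329), *Tll1* at 5.39 (3.40 to 8.88), *Adamts4* at 1.78 and *Mmp3* at 1.66. The genes past it lower were *Adamts5* at 0.242 (0.185 to 0.312) and *Adamts1* at 0.376 (0.327 to 0.431), both genes of proteases that cut large proteoglycans.

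Of 14 proteoglycans of other families, 3 were past 1.5-fold higher in cluster 0 and none lower, beside 6.88% and 19.7% of all genes tested. *Sdc4*, a syndecan of the cell surface, went from 24.2 to 136 CPM, a ratio of 5.63 (5.38 to 5.90), *Sdc1* from 47.6 to 84.4 CPM, a ratio of 1.77 (1.70 to 1.84), and *Vcan*, the large matrix proteoglycan versican, from 185 to 284 CPM, a ratio of 1.53 (1.5 to 1.56). Of the further leucine-rich family members, *Tsku* had a ratio of 1.34 (1.24 to 1.45), *Epyc* one of 0.751 (0.613 to 0.917) and *Nyx*, on few counts, one of 0.535 (0.284 to 0.968).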

How the data were processed

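Per the labels, polyA RNA of 2 samples was made into 10X Genomics 3′ libraries (v2 kit). The deposited matrices hold raw counts of UMIs per gene and cell, which the authors made without normalization, and the submitters' processing notes name Cell Ranger 2.2.0 and Seurat 2.3.4. The genome build and annotation are not given in the sources used here. The authors' clusters came from Seurat after canonical correlation analysis, at a resolution of 0.5. Cells had 3682 to 70604 UMIs in control and 2821 to 46594 in LPS, with no further filter, and 2 and 8 cells without a cluster were left out of the clusters.

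Members were matched by symbol. UMIs were summed per cluster and library in Python 3.11.15 (numpy 2.4.6, scipy 1.17.1, pandas 2.3.3) and divided by the cluster's total. Intervals are exact at 95%, a count of 0 was read as up to 3 UMIs, and background shares used genes with at least 50 UMIs and a log2 ratio with 0.5 UMI added. Cells are not replicates, so no test was made. Thinning drew 3000 UMIs per cell without replacement (seed 1). No doublet caller was run, and 1 alternative dropped the 8% with the most UMIs from each cluster. Scripts were tested on simulated data. All 9 members, the 3 genes most like each, and those genes of the lists that were most abundant or past 1.5-fold were named. The members and lists were chosen with earlier results of these data known. *Cenpp*, next to *Ogn* in RefSeq's order, was not analysed here.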

Additional observations from a re-analysis of the deposited data

Results flagged for a closer look

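Some members moved in opposite directions in different clusters, with counting intervals on either side of 1, and these differences were not tested. *Dcn* had its highest ratio of LPS to control, 1.93, in cluster 10 and its lowest, 0.916, in cluster 2. The median ratio of all genes in cluster 2 was 0.922, so *Dcn* lay near the centre there. *Lum* had its highest, 1.18, in cluster 9 and its lowest, 0.677, in cluster 5. Cells of cluster 9 varied in *Lum* beyond counting error, with a thinned variance 8.08 (control) and 7.78 (LPS) times the mean. For the sum of the members the ratios were 1.28 in cluster 10 and 0.772 in cluster 5. Clusters 9 and 10 hold 66 and 58 cells and 16 and 26 cells.

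The cells without a cluster, which no comparison used, held member UMIs just above the floor of 3 counts. The 2 control cells held 4 such UMIs and the 8 LPS cells 9, of which 4 were of *Lum*.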

How the results depend on the processing

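No paired analysis was possible because a single library stands for either treatment. Of 1097 values recomputed under the alternatives, 894 stayed within the counting interval of the reported value (or within 1.5 times, for counts and shares of genes), 203 moved and none of the values past 1.5-fold changed direction; 29 member values inside it did. The ratios of *Aspn* in cluster 0 ran from 0.283 to 0.364, those of *Ogn* from 0.326 to 0.372 and those of *Dcn* from 1.16 to 1.27. In cluster 2 *Dcn* ran from 0.781 to 0.994 and *Lum* from 0.645, past 1.5-fold, to 0.887, both lowest without the 8% of cells with the most UMIs. *Fmod* in cluster 1 came inside 1.5-fold in 3 settings (0.673 to 0.703). Thinning left *Fmod* in cluster 4 with a UMI in 5 cells of each library, and *Ogn* and *Aspn* in cluster 8 in at most 1, so their thinned ratios say nothing of the calls. Counted once per setting, 7 recomputed values of called members came inside 1.5-fold and 19 values of members inside it came past it. Among the latter were *Lum* in cluster 5 in 3 settings (0.599 to 0.652) and *Bgn* in cluster 4 in 2 (0.638 and 0.663). Past it upward, on few UMIs, came *Fmod* in cluster 6, at 2.25 without the 8% of cells with the most UMIs and 4.84 thinned. *Fmod* had 9 control and 5 LPS UMIs there in the main setting. Thinned control cells of cluster 6 held no *Fmod* UMI, so 4.84 is not read as a fold. Thinned *Prelp* in cluster 6 came to 2.08, also on few UMIs.

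The summed log2 ratio in cluster 0 (0.011) was 0.0049 without mitochondrial genes in the denominator, 0.14 scaled by the median ratio of all genes and 0.021 over the authors' fibroblasts. In cluster 1 (0.081) it was 0.068 thinned and 0.15 with median scaling. In cluster 2 (-0.23) it was -0.20 without cells under 4000 UMIs, -0.30 without the 8% of cells with the most UMIs, -0.27 as the mean of single cells and -0.11 with median scaling. The summed level in cluster 0 was 5798 CPM in control and 5825 in LPS without the 8% of cells with the most UMIs, 5810 and 5842 as the mean of single cells, 5817 and 5843 thinned, and 5933 and 5953 without mitochondrial genes. Any member was seen in 99.8% of control and 99.7% of LPS cells of cluster 0 when thinned to 1500 UMIs, and in 100% of control cells unthinned, against 99.98% at 3000. Past 2-fold, 9.01% of genes were lower and 3.43% higher in cluster 0, and with no filter on low counts 10.5% were higher past 1.5-fold. Leaving out the 194 shared barcodes, chosen after seeing the data, moved none of these summed values. Depth limits the scarce members: below about 50 UMIs the intervals of the ratios often span 1.5-fold.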
